A study of Saccharomyces cerevisiae with 91 samples.

Results

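General regulatory factors are abundant DNA-binding proteins of budding yeast that occupy many promoters and keep nucleosomes away from their sites, and the promoters described here are those of the genes that encode 6 of them, REB1, ABF1, RAP1, CBF1, TBF1 and MCM1. The members were taken by gene name from the deposited table of nucleosome positions, and each of the 6 names matched 1 of its 4536 ORF rows, out of 4963 transcripts in all. The series studied how the remodeler INO80 places nucleosomes on yeast genomic DNA and holds 91 libraries, most of them from chromatin reconstituted in vitro, whose signal was not analysed here. By the study's methods the nucleosome positions, except 1 column described below, come from 1 in vivo library without a treatment. It was made by digestion with micrococcal nuclease (MNase), which degrades the DNA between nucleosomes. Transcript ends come from a published annotation, and start codons, motifs and restriction sites from the genome sequence. The cells were in log phase in YPD medium and of the strain BY4741, a laboratory wild type. With 1 library there is no replicate error, and the table holds positions without read counts, so the depth behind a position is unknown.

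In a yeast promoter a nucleosome-depleted region (NDR) lies between the −1 nucleosome and the +1 nucleosome, the first of the array over the transcribed region, and transcription starts near the upstream edge of the +1 nucleosome. General regulatory factors bind within NDRs and act as barriers against which remodelers such as INO80 align arrays. Reb1 also stops transcription, Abf1 binds replication origins and silencers, and Rap1 binds ribosomal protein genes, telomeres and silencers. Cbf1 binds centromeres and genes of methionine synthesis, and Tbf1 binds genes of small nucleolar RNAs and subtelomeric repeats. Mcm1 is a MADS box factor of mating and cell cycle genes.

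The sequences between the annotated nucleosomes are shown because the position of a factor's own motif within them is compared with the dyads below. A dyad is the midpoint of the nucleosomal DNA. For REB1, CBF1 and MCM1 the stretch runs from the −1 to the +1 dyad, and for ABF1, RAP1 and TBF1, whose NDRs were longer, it is the part outside 73 bp of either dyad. All are from the R64 reference, read 5′ to 3′ in the direction of transcription, with matches to the motif of any of the 6 factors in capitals. They lie at chrII:336837-337009 on the minus strand (REB1), chrXI:226228-226444 on the plus strand (ABF1), chrXIV:241390-241583 on the plus strand (RAP1), chrX:548513-548699 on the plus strand (CBF1), chrXVI:308343-308553 on the minus strand (TBF1) and chrXIII:353462-353582 on the plus strand (MCM1).
REB1: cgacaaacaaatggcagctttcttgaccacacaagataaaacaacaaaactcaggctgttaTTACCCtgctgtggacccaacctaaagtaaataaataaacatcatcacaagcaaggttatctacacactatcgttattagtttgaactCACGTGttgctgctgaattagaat
ABF1: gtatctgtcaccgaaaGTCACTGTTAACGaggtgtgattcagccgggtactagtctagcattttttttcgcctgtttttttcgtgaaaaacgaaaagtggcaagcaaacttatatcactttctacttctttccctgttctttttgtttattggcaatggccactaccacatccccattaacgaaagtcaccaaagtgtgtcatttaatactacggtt
RAP1: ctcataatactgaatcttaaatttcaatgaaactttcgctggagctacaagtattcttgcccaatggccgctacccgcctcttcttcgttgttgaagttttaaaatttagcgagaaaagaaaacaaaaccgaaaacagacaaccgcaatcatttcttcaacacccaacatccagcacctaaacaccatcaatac
CBF1: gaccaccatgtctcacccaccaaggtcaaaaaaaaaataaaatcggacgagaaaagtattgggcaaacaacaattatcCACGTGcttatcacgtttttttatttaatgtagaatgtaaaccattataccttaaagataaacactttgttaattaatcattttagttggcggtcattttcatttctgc
TBF1: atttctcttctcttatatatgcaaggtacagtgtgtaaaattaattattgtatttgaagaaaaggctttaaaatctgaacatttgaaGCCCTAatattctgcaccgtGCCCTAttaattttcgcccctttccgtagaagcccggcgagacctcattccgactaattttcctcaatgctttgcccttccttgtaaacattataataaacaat
MCM1: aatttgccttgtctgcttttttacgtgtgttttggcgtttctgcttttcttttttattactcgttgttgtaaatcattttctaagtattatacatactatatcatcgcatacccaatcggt
The capitals mark 1 Reb1 motif (TTACCC) and 1 Cbf1 motif (CACGTG) at REB1, 1 Abf1 motif at ABF1, 1 Cbf1 motif at CBF1 and 2 Tbf1 motifs (GCCCTA) at TBF1. The stretches of RAP1 and MCM1 have none.

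The 6 promoters fell into 3 with short NDRs and 3 with long NDRs, and none had an NDR of typical length. The deposited NDR length, from the −1 to the +1 dyad, was 120 bp at MCM1, 172 bp at REB1 and 186 bp at CBF1. It was 341 bp at RAP1, 358 bp at TBF1 and 364 bp at ABF1. Over the 4485 ORF rows with a value the median was 265 bp and the quartiles were 228 and 298 bp. All 6 members thus lay outside the quartiles, beside 49.8% of ORF rows. The interval between CBF1 and RAP1, the nearest of the short and the long, held 71.8% of ORF rows. A percentile, the share of ORF rows below a value with ties counted as 0.5, was 1.54 for MCM1, 10.8 for REB1 and 14.0 for CBF1. It was 86.0 for RAP1, 88.3 for TBF1 and 89.0 for ABF1. No member was as long as the longest 5% of ORF rows, which begin at 429 bp, and of the short ones MCM1 alone was below the 5th percentile of 139 bp.

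**Figure D1:**
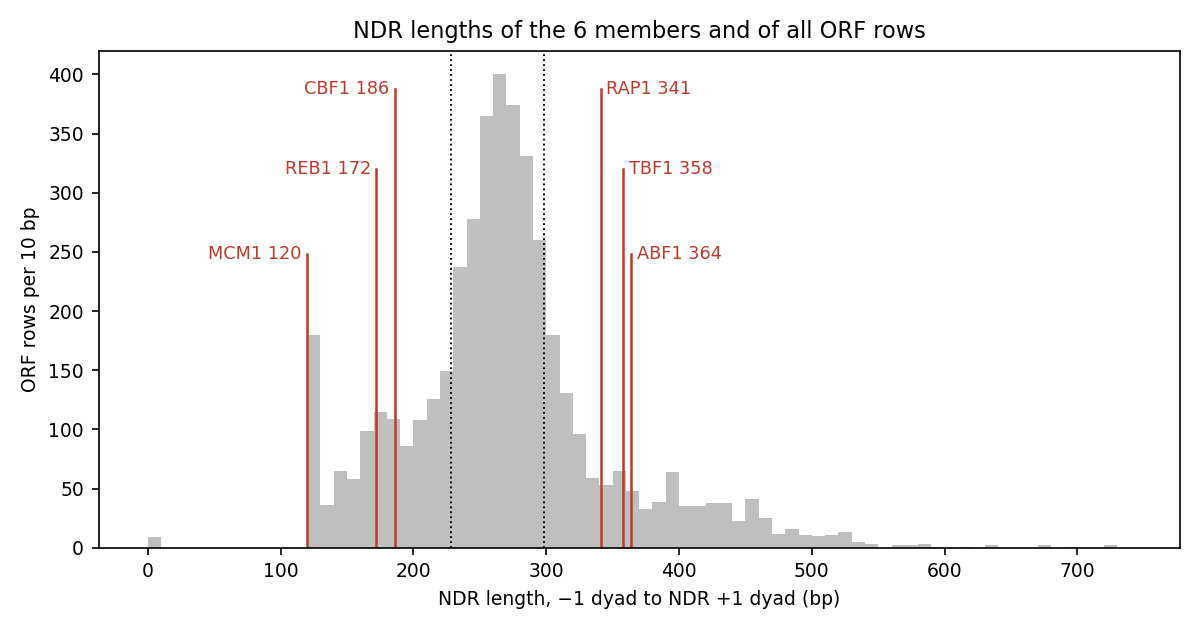
Deposited NDR length in bp (x axis) against the number of ORF rows per 10 bp (y axis, grey bars), with each member as a red line labelled with its length in bp and the quartiles of ORF rows as dotted lines. MCM1, REB1 and CBF1 (120 to 186 bp) lie left of the quartiles and RAP1, TBF1 and ABF1 (341 to 364 bp) right of them.

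The 120 bp of MCM1 is the shortest length above 0 in the table, shared by 120 ORF rows, and 9 ORF rows were listed at 0. The authors' nucleosome calling removed all candidates within a fixed distance of a stronger peak, so nearer dyads could not both be called. A nucleosome core covers about 147 bp, and cores centred on the dyads of MCM1 would overlap by 27 bp. Cores at REB1 would leave 25 bp between them and cores at CBF1 39 bp. The same measure was 194 bp at RAP1, 211 bp at TBF1 and 217 bp at ABF1, so that CBF1 and RAP1, the nearest of the short and the long, differed by more than a core length.

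The table gives 2 columns of +1 dyads, and which is used changes the numbers at these genes. The column that enters the deposited NDR length is called the NDR +1 dyad here. In the other column all but 2 of 4949 positions fell on a grid of 10 bp, its origin is not given in the sources used here, and its entries are called the grid +1 dyad. Over ORF rows both columns lay within 20 bp of each other in 76.2%, with a median difference of 11 bp, and 3 of the 6 members were within that distance. The NDR +1 dyad lay 6 bp downstream of the grid +1 dyad at RAP1, 18 bp at CBF1, 34 bp at REB1 and 57 bp at ABF1. It lay 18 bp upstream of it at TBF1 and 39 bp upstream at MCM1. The differences at ABF1, MCM1 and REB1 were above the upper quartile of ORF rows, at percentiles 92.1, 89.6 and 88.0 of their size.

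With the grid +1 dyad the NDR of MCM1 became 159 bp, that of REB1 138 bp and that of CBF1 168 bp. The NDRs of RAP1, TBF1 and ABF1 became 335, 376 and 307 bp. The separation into 3 short and 3 long thus held with either column, and the order within each changed. The nearest of the short and the long were then CBF1 and ABF1, which differed by less than a core length. The percentile moved most at ABF1, to 79.3, and at MCM1, to 9.07.

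The short NDRs went with a −1 dyad close to the transcription start site (TSS). The −1 dyad lay 59 bp upstream of the TSS at MCM1, 59 bp at REB1 and 85 bp at CBF1, at percentiles 6.92, 6.92 and 10.7 of the ORF rows. It lay 227 bp upstream at ABF1, 269 bp at RAP1 and 325 bp at TBF1, at percentiles 62.1, 83.6 and 91.9. The median of ORF rows was 211 bp. A core centred on the −1 dyad of MCM1 or REB1 would include the TSS, since both lie less than 73 bp apart. As the NDR length is the sum of this distance and that from the TSS to the NDR +1 dyad, the same dyads enter both results.

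At REB1, ABF1 and CBF1 the +1 dyad lay farther downstream of the TSS than the upper quartile of ORF rows by either column. The distance to the NDR +1 dyad was 137 bp at ABF1, 113 bp at REB1 and 101 bp at CBF1, at percentiles 91.9, 88.6 and 86.1. It was 72 bp at RAP1 and 61 bp at MCM1, at percentiles 75.0 and 62.5. TBF1 had the shortest distance with 33 bp, at percentile 15.9, beside an ORF median of 54 bp. The distance to the grid +1 dyad was 100 bp at MCM1, 83 bp at CBF1, 80 bp at ABF1 and 79 bp at REB1. It was 66 bp at RAP1 and 51 bp at TBF1, and the ORF median was 50 bp. By the grid +1 dyad all 6 members were thus above the ORF median, and by the NDR +1 dyad all but TBF1 were.

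**Figure D2:**
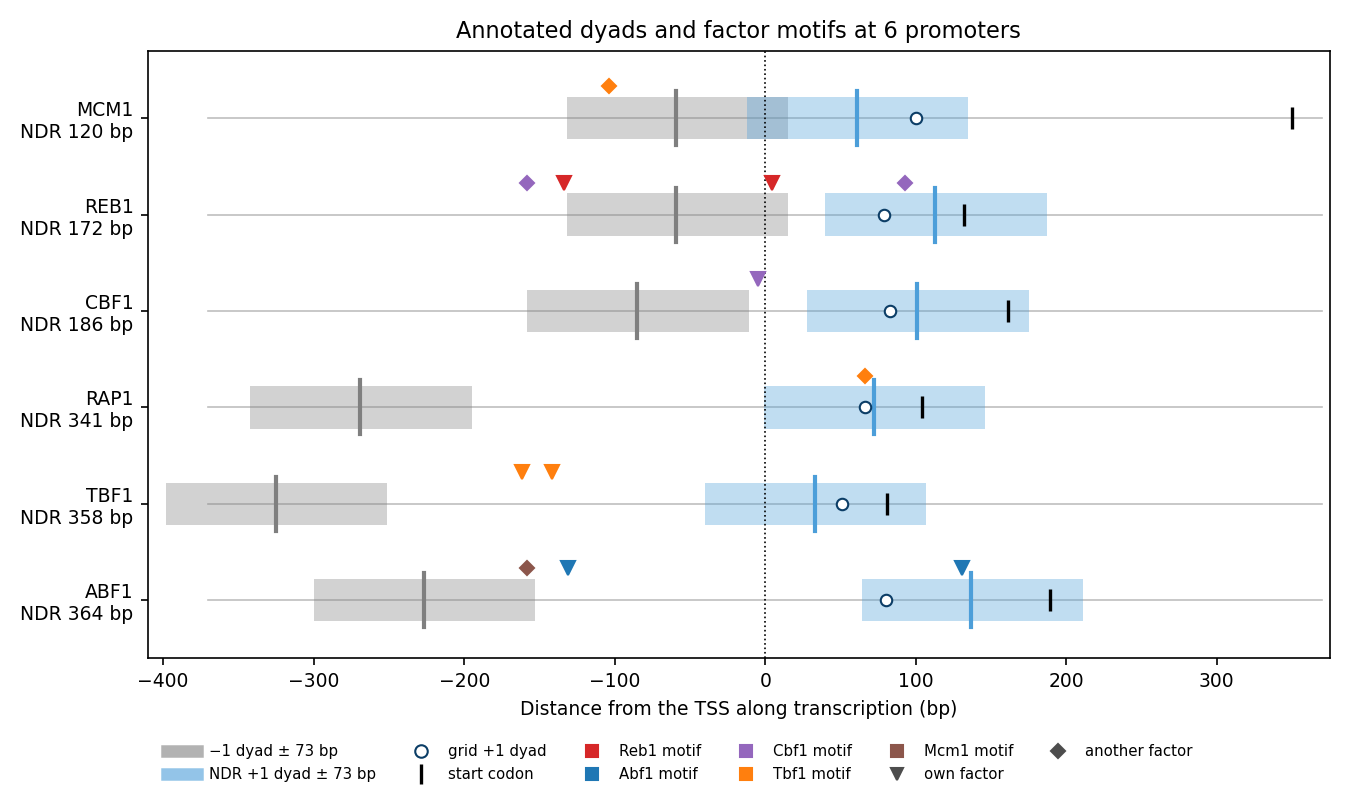
Map of the 6 promoters from the shortest NDR (top) to the longest, with distance from the TSS in bp along transcription (x axis). Bars show 73 bp on either side of the −1 dyad (grey) and of the NDR +1 dyad (blue), circles the grid +1 dyad, black ticks the start codon, triangles motifs of the gene's own factor and diamonds motifs of another of the 6. The −1 bars of MCM1, REB1 and CBF1 sit 59 to 85 bp from the TSS and those of ABF1, RAP1 and TBF1 227 to 325 bp from it.

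Each member is described in turn, with its place in the genome on R64. REB1 (YBR049C) lies on the minus strand of chromosome II, with its TSS at 336950, its NDR +1 dyad at 336837, its grid +1 dyad at 336871 and its −1 dyad at 337009. Its upstream neighbour REG2, a regulatory subunit of the phosphatase Glc7, points the same way, and its −1 dyad lay 251 bp downstream of the last dyad of REG2. The start codon is 132 bp downstream of the TSS, so the +1 dyad lay within the 5′ untranslated part of the transcript by either column.

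ABF1 (YKL112W) lies on the plus strand of chromosome XI, with its TSS at 226381, its NDR +1 dyad at 226518, its grid +1 dyad at 226461 and its −1 dyad at 226154. It is the only one of the 6 with a divergent upstream neighbour, RAD27, the flap endonuclease of lagging strand replication. The −1 dyad of ABF1 is also the −1 dyad of RAD27, whose NDR was 278 bp, so that 1 annotated nucleosome lay between both promoters. The coding sequences are 694 bp apart.

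RAP1 (YNL216W) lies on the plus strand of chromosome XIV, with its TSS at 241585, its NDR +1 dyad at 241657, its grid +1 dyad at 241651 and its −1 dyad at 241316. The gene upstream in the same direction is YNL217W (PPN2), which encodes an endopolyphosphatase, and the −1 dyad of RAP1 is the last dyad of YNL217W, 5 bp past the end of its coding sequence. RAP1 had the smallest difference between both +1 columns.

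CBF1 (YJR060W) lies on the plus strand of chromosome X, with its TSS at 548598, its NDR +1 dyad at 548699, its grid +1 dyad at 548681 and its −1 dyad at 548513. It follows PTK2, a protein kinase gene, in tandem, and its −1 dyad lay 141 bp downstream of the last dyad of PTK2. From that last dyad to the NDR +1 dyad of CBF1 it was 327 bp, a distance near the 341 bp at RAP1 where no further dyad was annotated in between.

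TBF1 (YPL128C) lies on the minus strand of chromosome XVI, with its TSS at 308302, its NDR +1 dyad at 308269, its grid +1 dyad at 308251 and its −1 dyad at 308627. Its tandem neighbour HHO1 encodes the linker histone of yeast, and the −1 dyad of TBF1 is the last dyad of HHO1. TBF1 had both the shortest distance from the TSS to the +1 dyad and the longest from the −1 dyad to the TSS among the 6.

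MCM1 (YMR043W) lies on the plus strand of chromosome XIII, with its TSS at 353521, its NDR +1 dyad at 353582, its grid +1 dyad at 353621 and its −1 dyad at 353462. Upstream in tandem lies ARG80, which encodes the related MADS box factor of arginine metabolism and has no row among the deposited positions. The start codon of MCM1 is 350 bp downstream of the TSS, at percentile 94.8 of ORF rows, and 289 bp downstream of the NDR +1 dyad.

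In all, 5 of the 6 members had a tandem upstream neighbour, beside 48.0% of ORF rows. Among tandem ORF rows the −1 dyad was the last dyad of a transcript in 48.0%, and among the 4 tandem members whose neighbour has a row this held for RAP1 and TBF1. At REB1 and CBF1 the −1 dyad was a further dyad, downstream of the last one of the neighbour. RAP1 and TBF1, which shared this dyad, had long NDRs, and REB1 and CBF1, which did not, had short ones. This share of the 4 is near the 48.0% of tandem ORF rows, and a link with NDR length was not tested.

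The 5′ leaders were above the ORF median at all 6 genes and above the upper quartile of 135 bp at 3 of them. From the TSS to the start codon it was 81 bp at TBF1, 104 bp at RAP1, 132 bp at REB1, 161 bp at CBF1, 189 bp at ABF1 and 350 bp at MCM1, beside an ORF median of 68 bp. The +1 dyad lay upstream of the start codon at 6 of 6 members, beside 56.0% of ORF rows by the NDR +1 dyad and 62.4% by the grid +1 dyad. By the NDR +1 dyad it was 19 bp from the start codon at REB1, 32 bp at RAP1, 48 bp at TBF1, 52 bp at ABF1 and 60 bp at CBF1. A core centred on the NDR +1 dyad would thus include the start codon at these 5 genes, and at MCM1, with 289 bp, it would not. From the grid +1 dyad the distance was 30 bp at TBF1, 38 bp at RAP1, 53 bp at REB1, 78 bp at CBF1, 109 bp at ABF1 and 250 bp at MCM1, so that by this column a core would include the start codon at TBF1, RAP1 and REB1 and not at the other 3.

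**Figure D3:**
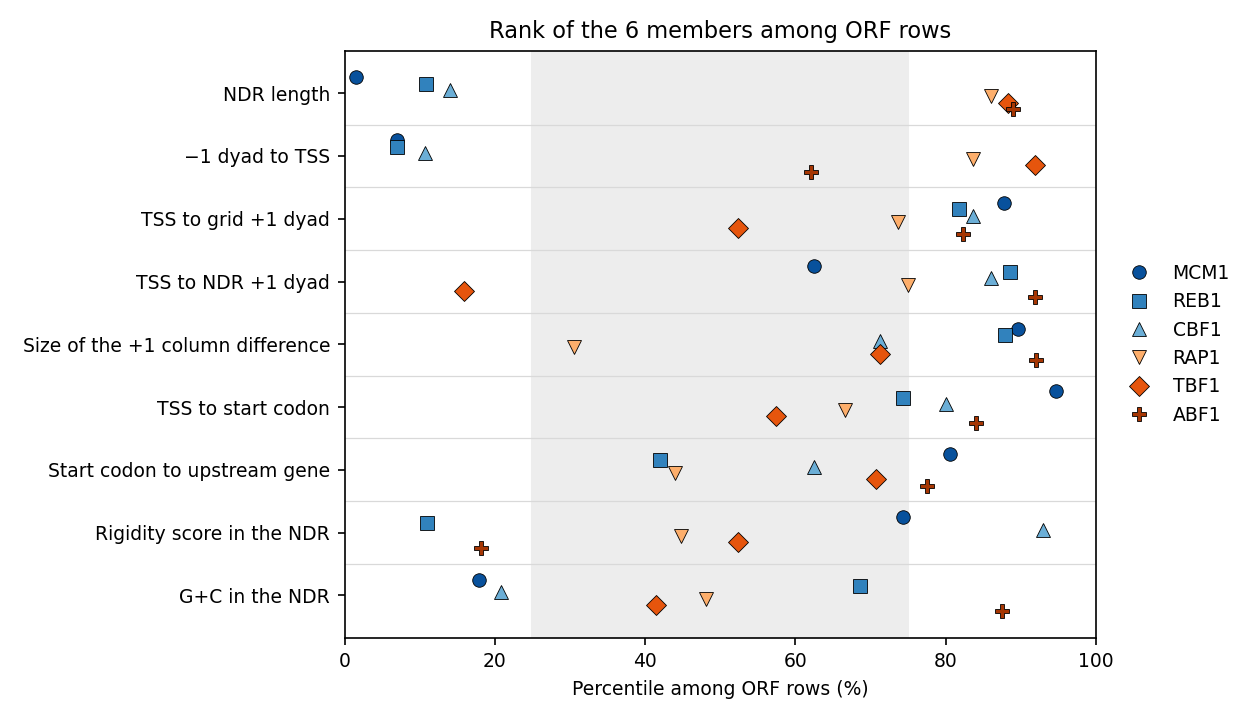
Percentile of each member among ORF rows (x axis, %) for 9 quantities (y axis), with 1 symbol per gene and the range between the quartiles of ORF rows shaded. NDR length separates the blue symbols (1.54 to 14.0%) from the orange ones (86.0 to 89.0%), whereas the TSS to start codon distance lies above 50% for all 6.

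Whether a factor's gene carries the motif of that factor was asked within 400 bp upstream of the grid +1 dyad on either strand. The motifs were TTACCC for Reb1, ACCCANNCA for Rap1, CACGTG for Cbf1, ACCCTA or GCCCTA for Tbf1, and degenerate consensus motifs for Abf1 and Mcm1. The own motif was found at 4 of the 6 genes, with 2 Reb1 motifs at REB1, 1 Abf1 motif at ABF1, 1 Cbf1 motif at CBF1 and 2 Tbf1 motifs at TBF1. RAP1 had no Rap1 motif and MCM1 no Mcm1 motif in this window, which says only that these letters are absent. Over ORF rows the same window held a Reb1 motif in 23.0%, an Abf1 motif in 19.0%, a Rap1 motif in 4.84%, a Cbf1 motif in 5.43%, a Tbf1 motif in 14.9% and an Mcm1 motif in 20.1%. At least 2 Reb1 motifs stood in 2.32% of ORF rows and at least 2 Tbf1 motifs in 2.69%. A match is a stretch of letters and not evidence of binding. With stricter forms of the motifs 3 genes kept a match, and CBF1 lost its own because the longer form needs a further base.

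**Figure D4:**
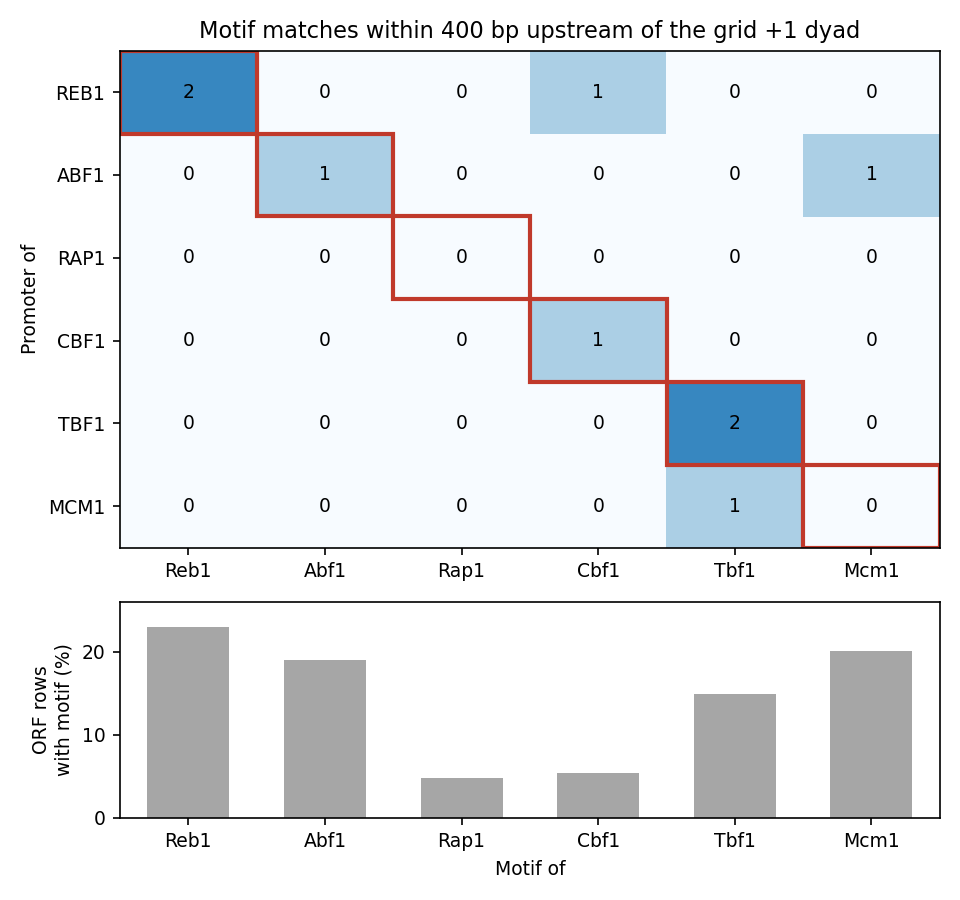
Number of motif matches within 400 bp upstream of the grid +1 dyad for each promoter (rows) and factor (columns), with own motifs framed in red, above the percent of ORF rows with at least 1 match (bars). Own motifs occur at REB1 (2), ABF1 (1), CBF1 (1) and TBF1 (2), and 3 of the other combinations hold a match.

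The own motifs lay at different places relative to the nucleosomes. At REB1 one TTACCC, at chrII:336943-336948, had its centre 4.5 bp downstream of the TSS, 108.5 bp upstream of the NDR +1 dyad and 63.5 bp from the −1 dyad, so it fell within the core of the −1 nucleosome. The other, at chrII:337081-337086, lay 74.5 bp upstream of the −1 dyad, just beyond that core and outside the NDR. At ABF1 the Abf1 motif at chrXI:226244-226256 lay between the cores, 268 bp upstream of the NDR +1 dyad. A second Abf1 match on the other strand, at chrXI:226506-226518, ended on the NDR +1 dyad itself and downstream of the window searched.

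At CBF1 the CACGTG at chrX:548591-548596 lay between the cores, with its centre 4.5 bp upstream of the TSS and 105.5 bp upstream of the NDR +1 dyad. REB1 and CBF1 thus both had an own motif centred 4.5 bp from the TSS, downstream of it at REB1 and upstream of it at CBF1. Neither of these matches has the stricter form of its motif. The match that REB1 kept under the stricter form is the one upstream of the −1 core. At TBF1 the pair of GCCCTA motifs, at chrXVI:308461-308466 and chrXVI:308441-308446, had centres 20 bp apart on the coding strand and lay between the cores, 194.5 and 174.5 bp upstream of the NDR +1 dyad.

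Motifs of another factor of the 6 were found in 3 of 30 combinations, beside 4.84% to 23.0% of ORF rows for the single motifs. REB1 had a CACGTG at chrII:337106-337111, upstream of the −1 core, ABF1 had an Mcm1 motif at chrXI:226218-226228 within the −1 core, and MCM1 had a Tbf1 motif at chrXIII:353415-353420 on the other strand, 44.5 bp upstream of its −1 dyad. A further CACGTG of REB1 at chrII:336855-336860 lay within the +1 core and downstream of the grid +1 dyad, and a GCCCTA of RAP1 at chrXIV:241649-241654 spanned the grid +1 dyad, so neither is counted in the window. Counted by kind, 1 member had motifs of none of the 6 factors, 3 had 1 kind and 2 had 2 kinds. Over ORF rows these shares were 38.8%, 40.0% and 17.0%.

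Stretches of at least 6 A or 6 T, which stiffen DNA and disfavour nucleosomes, were absent from the NDRs of REB1, RAP1 and TBF1 on the coding strand. That is 3 of 6 members, beside 31.9% of ORF rows. CBF1 had 17 bases in such tracts, ABF1 15 and MCM1 12, and the ORF median was 7. As a share of the NDR this was 9.92% at MCM1 and 9.09% at CBF1, at percentiles 95.8 and 93.8, and 4.11% at ABF1. The tracts of ABF1 and MCM1 were T tracts, and CBF1 had 10 bases of A and 7 of T, as the sequences above show.

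The rigidity score of the study, the length of the longest run of A followed by T that covers a position, averaged 2.45 over the NDR of CBF1, at percentile 92.9. It averaged 1.34 at REB1 and 1.46 at ABF1, at percentiles 10.9 and 18.1. The averages of RAP1, TBF1 and MCM1 were 1.73, 1.81 and 2.03, beside an ORF median of 1.78. Scored over 400 bp upstream of the +1 dyad instead, ABF1 was at percentile 51.1 and RAP1 at 54.8, and MCM1 was at 38.3, against 74.3 over its NDR. CBF1 and REB1, with NDRs of similar length, were at opposite ends of the members in either window. The G+C content of the NDR was 40.5% at ABF1, 37.6% at REB1, 35.4% at RAP1, 34.8% at TBF1, 32.6% at CBF1 and 32.2% at MCM1, and the ORF median was 35.5%.

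The study also cut its DNA library with restriction enzymes before remodeling, and the 3 lists of BamHI, EcoRV and KpnI sites had no site in any of the 6 NDRs. Over ORF rows an NDR held a BamHI site in 1.74%, an EcoRV site in 6.76% and a KpnI site in 2.27%. A BamHI site lay 86 bp downstream of the NDR +1 dyad of RAP1, at percentile 1.88 of this distance, just outside the +1 core. Another lay 196 bp upstream of the NDR +1 dyad of CBF1, at percentile 4.14 and 10 bp beyond the −1 dyad. At the other 4 members the nearest BamHI site was 1091 to 6527 bp away.

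For each member the ORF row most alike was sought by the summed difference of 3 distances, from the TSS to both +1 dyads and from the −1 dyad to the TSS, over 4476 ORF rows. MCM1 was most like YMR244C-A, with a sum of 3 bp, TBF1 was most like RPL22B, a ribosomal protein gene, with 6 bp, and RAP1 was most like ERG28, a gene of ergosterol synthesis, with 9 bp. REB1 was nearest to SEO1 with 10 bp and CBF1 to the small heat shock protein gene HSP26 with 15 bp. ABF1 had no ORF row within 30 bp and was nearest to CTI6, a subunit gene of the Rpd3L deacetylase complex, with 35 bp. At RAP1 and CBF1 2 rows tied. By this sum ABF1 had the fewest close counterparts of the 6, whereas 41 ORF rows lay within 30 bp of RAP1. Both +1 columns enter the sum, so the count also depends on how far they differ. That difference was largest at ABF1, with 57 bp, and smallest at RAP1, with 6 bp.

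Genes for factors that act with the 6, or are a paralog of one, were listed as a comparison. The list held 23 genes, of which 17 matched an ORF row, most of them partners of Rap1, Cbf1 or Mcm1. Their NDR lengths had a median of 265 bp, the same as that of ORF rows, and ranged over 147 to 426 bp. Of the 6 members 3 lay below the lower quartile of ORF rows, 0 between the quartiles and 3 above the upper one, against 5, 7 and 5 of the 17 listed genes. None of the 17 was below the 5th or above the 95th percentile, so the naming rule picks none. Named outside that rule, after their values were seen, YHP1, a repressor gene of the Mcm1 network, had the shortest of these NDRs with 147 bp and SIR4, a silencing factor gene recruited by Rap1, the longest with 426 bp. REB1 had an NDR of 172 bp, against 265 bp at its paralog NSI1, also named outside the rule.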

How the data were processed

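The members and gene lists were chosen with earlier results of these data known. By the study's methods, the authors mapped reads of 1 in vivo MNase-seq library to SacCer3 with Bowtie, moved read ends to nucleosome midpoints, smoothed these counts, called peaks iteratively with an exclusion zone and kept the highest. The deposited values are coordinates and distances in bp. The lists of restriction sites hold positions predicted from sequence. Distances, percentiles over ORF rows, motif matches and tracts were computed with Python 3.11.15, numpy 2.4.6 and pandas 2.3.3, without a test, and the routines were tested on simulated data. The sequence and annotation were RefSeq's R64, the build SacCer3 denotes, and all 1657 BamHI, 4202 EcoRV and 1904 KpnI nuclear sites lay on their recognition sequences.

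All deposited NDR lengths (4903 of 4903) were distances from the −1 dyad to the NDR +1 dyad. The plan had named the grid column for the +1 distance and the motif windows, so both columns are given. In addition, 5 coordinate columns were not used. Genes named are the members, their upstream neighbours, for each member the ORF row with the smallest summed difference of 3 distances, and listed partner genes beyond the 5th or 95th percentile of NDR length, of which there were none. YHP1, SIR4 and NSI1 were named outside this rule, after their values were seen. Alternatives were the other +1 column, all transcripts, extreme NDRs left out, the start codon in place of the TSS, shorter windows, stricter motifs and shorter tracts. The orientation of the upstream gene, and the other +1 column for motifs of other factors, were added after seeing the data.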

Additional observations from a re-analysis of the deposited data

How the results depend on the processing

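Of 71 alternatives over 28 values, 28 stayed close and 43 moved. Percentiles were close within the interval that the number of ORF rows alone gives (95% Wilson), and counts within 1.5 times. The median of the partner genes has no such interval, and its change was counted as moved. None of the 28 values has replicate error. No paired analysis was possible because the positions come from 1 library and no test was made. With the other +1 column, NDR length percentiles became 6.29 for REB1, 79.3 for ABF1, 10.7 for CBF1, 90.3 for TBF1 and 9.07 for MCM1, and the median of the partner genes 251 bp. With ORF rows at 0 or over 500 bp left out they became 90.1 for ABF1, 87.1 for RAP1 and 89.4 for TBF1, and among ORF rows of the same orientation 90.3 for ABF1, 84.5 for RAP1 and 86.9 for TBF1. No member moved between the short and the long group under any of these.

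Percentiles of the distance to the grid +1 dyad became 88.6 for REB1, 91.9 for ABF1, 75.0 for RAP1, 86.1 for CBF1, 15.9 for TBF1 and 62.5 for MCM1 with the NDR +1 dyad. Over all transcripts they became 80.3 for REB1, 80.8 for ABF1, 72.2 for RAP1, 82.2 for CBF1 and 86.6 for MCM1. Measured from the start codon, with downstream counted as positive, they became 30.4 for REB1, 18.9 for ABF1 and 36.0 for RAP1. In the same measure they became 24.1 for CBF1, 39.7 for TBF1 and 6.61 for MCM1. All 6 grid +1 dyads lay upstream of the start codon, so a lower percentile here means a dyad farther upstream of it. The distance between this dyad and the start codon is the leader less the distance from the TSS to the dyad. At all 6 members both of these were above the ORF median. The −1 distance is instead counted as positive upstream. Percentiles of the −1 distance became 7.73 for REB1 and MCM1 over all transcripts, and from the start codon 12.7 for REB1, 82.0 for ABF1, 75.2 for RAP1, 30.5 for CBF1, 80.4 for TBF1 and 80.8 for MCM1.

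The mean rigidity score over 400 bp upstream of the +1 dyad was at percentiles 16.0 for REB1, 51.1 for ABF1, 54.8 for RAP1, 88.4 for CBF1, 62.3 for TBF1 and 38.3 for MCM1. The own motif was found at 3 to 4 of 6 genes under every window and motif tried. The grid of one column, and the unknown depth, limit differences of a few bp.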

Other observations

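The deposited NDR centres were computed from different +1 columns on the 2 strands. On the plus strand 2467 of 2467 centres were the midpoint between the −1 dyad and the grid +1 dyad, and on the minus strand 2433 of 2433 were the midpoint with the NDR +1 dyad. For ABF1 the deposited centre at 226307.5 is therefore that of the shorter of its NDRs, and for REB1 the centre at 336923 is that of the longer one.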
